A study of Mus musculus with 2 samples.

Results

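This account sets mice given GITR/Syn GA-aFuc, an antibody to mouse GITR that the annotation calls non-agonist with an enhanced Fc part, against Untreated mice, described in the design text as given PBS. Members are the annotated leukocytes whose deposited treatment starts with either name, 9813 of 19210 cells: 5035 from 3 GITR/Syn GA-aFuc mice and 4778 from 3 Untreated mice. Every mouse was of the genotype labelled Human FCR, a strain with human Fcγ receptor genes, and every tumour was MC38, a transplantable mouse colon adenocarcinoma line, grown from cells injected under the skin of the flank. The antibody is a human IgG1 Fc variant, given into the peritoneum at 100 µg per mouse in 2 injections 3 days apart, and tumours were taken on day 4 after treatment. Sorting kept CD45+ cells, CD45 being a surface protein of leukocytes. The remaining treatments, used here only to place values, were GA-aFuc (labelled agonist with an enhanced Fc, 3 mice) and N297A (labelled agonist with a null Fc, 3 mice). Ages, sexes and the driver of the human receptor genes are not given in the sources used here.

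GITR, the product of Tnfrsf18, belongs to the costimulatory receptors of the tumour necrosis factor receptor family and stands high on regulatory T cells (Tregs) and on activated T and NK cells. An antibody to such a receptor can act through its binding arms, by clustering the receptor and signalling into the cell, and through its Fc part, by engaging Fcγ receptors on NK cells, monocytes and macrophages that can kill or engulf the coated cell. NK cells kill by releasing granules of perforin and granzymes, and FcγRIIIA is their main activating Fc receptor. The comparison asks what an antibody with an enhanced Fc part does to tumour leukocytes when its label excludes agonism.

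The annotation has 58 clusters in 10 cell types and 12 runs of sorted barcodes, each of 1 treatment, which were taken as mice. GITR/Syn GA-aFuc held 1381 cells of 1 mouse in library 1 and 1729 and 1925 cells of 2 mice in library 2, and Untreated held 1485 and 1525 cells of 2 mice in library 1 and 1768 cells of 1 mouse in library 2. Counts were analysed for library 2 alone, so expression compares 2 mice with 1. These 3 mice had medians of 12565 and 12747 unique molecular identifiers (UMIs, counted molecules) per cell, against 12451, and mitochondrial medians of 2.00% and 1.70%, against 1.80%. Xist, the RNA of the inactive X chromosome, stood at 551 and 1.98 counts per 1000000 mapped UMIs (CPM) in the GITR/Syn GA-aFuc mice, against 1.64 CPM in the Untreated mouse, while Y-linked Uty stood at 0.319 and 61.7 CPM, against 61.3 CPM. Replicate 2 of GITR/Syn GA-aFuc is therefore the only female profile among the 3 mice compared. The libraries shared 34 barcodes, and the own hashtag was the most frequent one in 10476 of 10476 cells of library 2.

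Tregs were the only cell type whose share fell in the test. They made up 0.217%, 0.0578% and 0.0519% of annotated cells in the GITR/Syn GA-aFuc mice (3, 1 and 1 cells), against 0.741%, 0.852% and 0.622% in the Untreated mice (11, 13 and 11 cells). All mice with the antibody lay below all mice without it, in both libraries. By edgeR on cell counts with library as a term, the share fell by 2.43 ± 0.44 on the log2 scale (SE, adjusted p = 0.00133, 3 against 3 mice), the only call among the cell types (10.0% of 10). In the GA-aFuc mice 0.209%, 0.116% and 0.0649% of cells were Tregs, and the difference of GITR/Syn GA-aFuc from them was -0.31 ± 0.59 (edgeR, adjusted p = 0.791). With library 1 alone the Treg difference was -1.83 (edgeR, adjusted p = 0.126). An exact permutation within libraries has 9 arrangements and cannot give a p below 0.111, the value it gave here.

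Cluster 50, the only Treg cluster, was led by Tnfrsf4 (the costimulatory receptor OX40), Ikzf2 (the Treg transcription factor Helios), Areg, Icos, Ctla4, Tnfrsf18 and Foxp3, the factor that defines Tregs. In library 2 it held 1 and 1 cells of the GITR/Syn GA-aFuc mice, with 1 and 4 UMIs of Tnfrsf18 (262 and 512 CPM), against 11 cells of the Untreated mouse with 82 UMIs (692 CPM). Foxp3 had 0 UMIs in both GITR/Syn GA-aFuc cells, which allows up to 786 and 384 CPM, against 160 CPM in the Untreated cells, so a difference of Foxp3 per remaining cell was not detectable at this depth. Macrophage markers summed to 786 and 384 CPM in these barcodes of GITR/Syn GA-aFuc, against 17548 CPM in those of Untreated. The part of free or foreign RNA in the Treg barcodes was not tested.

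The target itself was carried by other cells as well. In CD8 T cells Tnfrsf18 stood at 201 and 246 CPM in the GITR/Syn GA-aFuc mice, against 274 CPM in the Untreated mouse, with a UMI in 72.7% and 86.8% of cells, against 80.3%. After thinning every cell to 3000 UMIs these shares were 37.9% and 52.9%, against 50.8%. In NK cells Tnfrsf18 stood at 102 and 125 CPM, against 96.2 CPM in the Untreated mouse. Macrophages held 1.41 and 2.28 CPM of Tnfrsf18, against 2.40 CPM in the Untreated mouse. CD8 T cells, 11.7%, 3.82% and 3.53% of cells in the GITR/Syn GA-aFuc mice and 13.4%, 5.38% and 7.47% in the Untreated mice, had a log2 difference of -0.33 ± 0.43 (edgeR, adjusted p = 0.573).

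Shares of the remaining types did not pass the test. Mice of the treatments did not overlap for 3 of 10 types (30%), Tregs, NK cells and cDC1. NK cells were 5.36%, 5.38% and 3.84% of cells in the GITR/Syn GA-aFuc mice, against 11.1%, 7.15% and 7.24% in the Untreated mice (log2 difference -0.67 ± 0.33, edgeR, adjusted p = 0.257). Type 1 conventional dendritic cells (cDC1), which present tumour antigen to CD8 T cells, were 0.579%, 0.694% and 0.571%, against 0.404%, 0.525% and 0.509% (0.46 ± 0.33, adjusted p = 0.524). Macrophages were 51.7%, 58.7% and 56.6%, against 42.4%, 45.4% and 53.3%, and their mice overlapped (0.20 ± 0.10, adjusted p = 0.257). Among their clusters 17 of 24 had a positive difference, against 3 of 15 monocyte clusters and 0 of 5 CD8 clusters. In the other types 2 of 5 NK, 2 of 3 cDC2, 0 of 2 CD4 and 0 of 1 Treg clusters were positive, as were the single clusters of cDC1, mregDC and pDC. Clusters share the total of their type, so their signs are not independent of the type shares above.

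**Figure D1:**
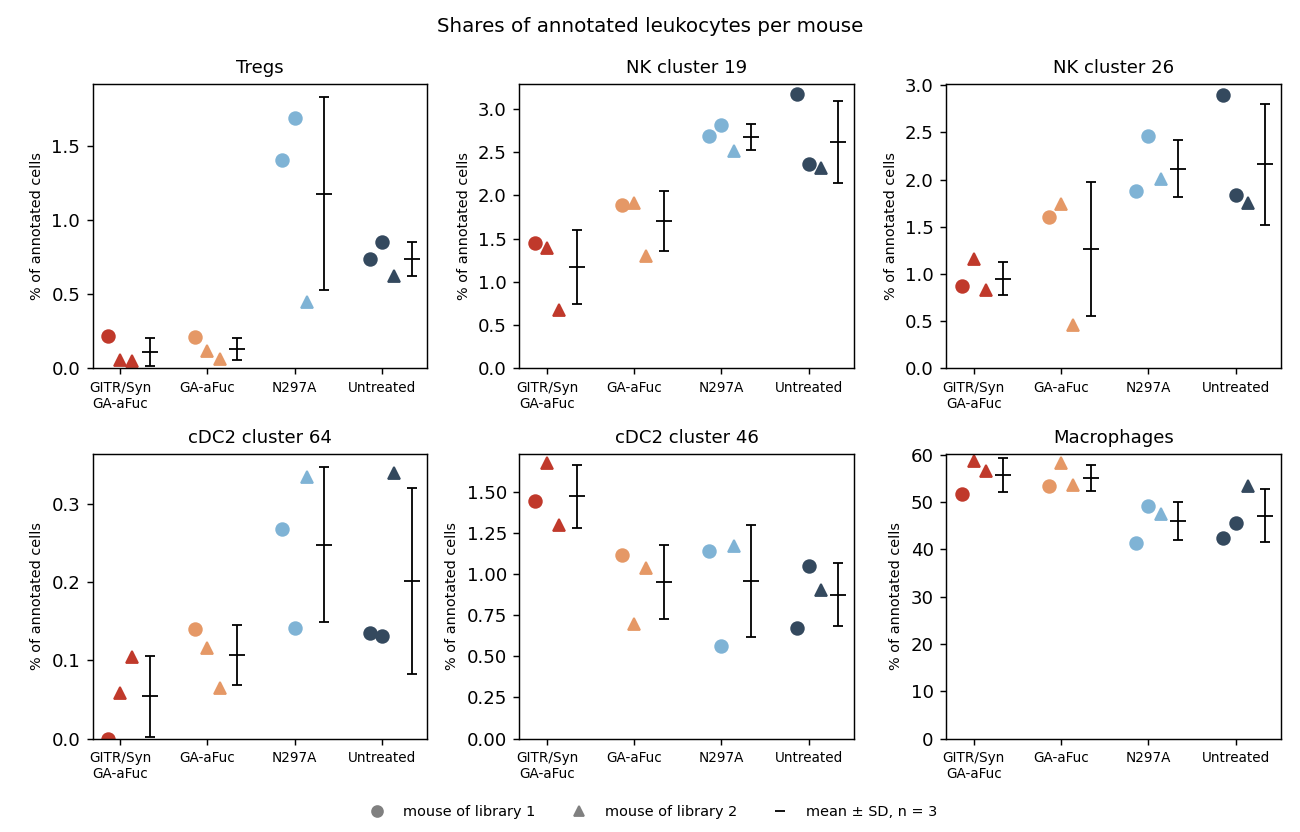
Percent of annotated cells per mouse (y axis, linear, from 0) for 6 populations, with treatments from GITR/Syn GA-aFuc on the left to Untreated on the right, circles for library 1, triangles for library 2, and the mean ± SD of 3 mice in black. Tregs lie at or below 0.217% in all GITR/Syn GA-aFuc mice and at or above 0.622% in all Untreated mice.

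At the level of clusters 1 of 58 passed (1.72%), the Treg cluster 50 (-2.43 ± 0.51, edgeR, adjusted p = 0.0201), and 10 of 58 had mice that did not overlap (17.2%). Cluster 50 lost its call without GITR/Syn GA-aFuc replicate 1 or 3 or Untreated replicate 3 (-2.84, -2.29 and -1.93, edgeR). An unadjusted p under 0.05 was found for 6 clusters. NK cluster 19 came next to the threshold. It held 1.45%, 1.39% and 0.675% of cells in the GITR/Syn GA-aFuc mice, against 3.16%, 2.36% and 2.32% in the Untreated mice (-1.09 ± 0.28, adjusted p = 0.0559). NK cluster 26 held 0.869%, 1.16% and 0.831%, against 2.90%, 1.84% and 1.75% (-1.07 ± 0.40, adjusted p = 0.271). In both clusters every GITR/Syn GA-aFuc mouse lay below every Untreated mouse. Cluster 19 was led by Gzma (granzyme A), Klrb1c (NK1.1), Klra4 and Klra8 (receptors of the Ly49 family), and within NK cells by interferon-induced Ifi204, Ifit2, Rsad2 and Cxcl10. Cluster 26 was led by Gzma and Itga2, the integrin CD49b of circulating NK cells. The other 3 NK clusters were led by Gzmc and Gzmd (20), Gzmd, Gzmc and Gzme (48) and, beside Gzmc, cycling genes such as Top2a and Mki67 (58). Their shares differed by -0.50 ± 0.29, 0.17 ± 0.62 and 0.05 ± 0.68 (edgeR, adjusted p from 0.524 to 0.973).

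**Figure D2:**
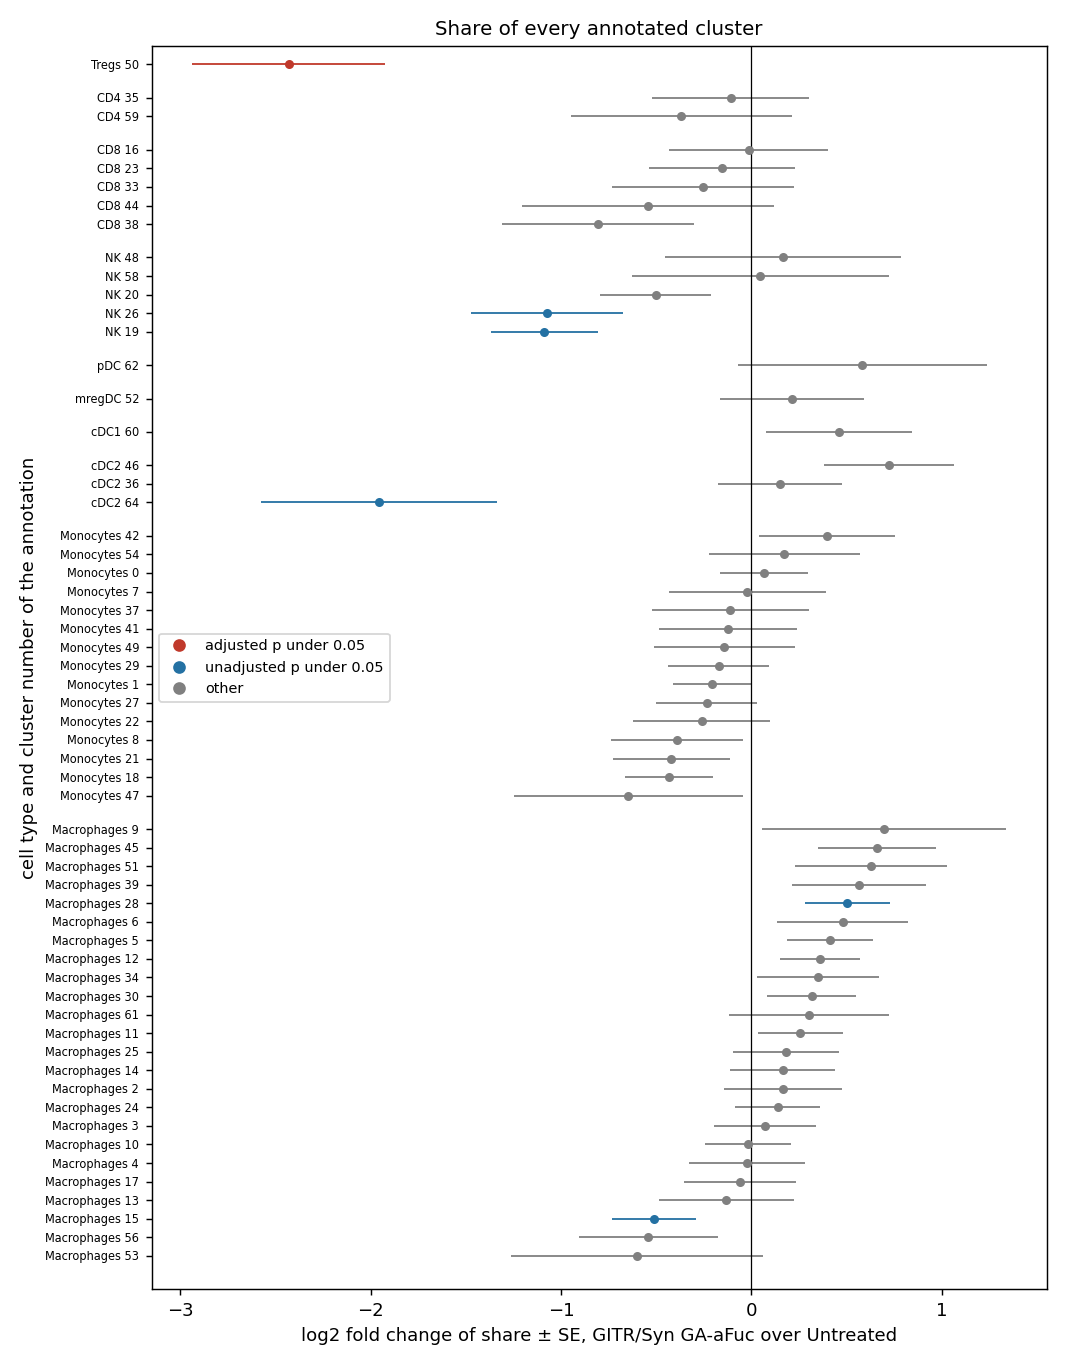
Log2 fold change of the share of each of 58 annotated clusters, GITR/Syn GA-aFuc over Untreated, with its SE (x axis), ordered by cell type down the page. Cluster 50 of Tregs, at -2.43, is the only one with an adjusted p under 0.05.

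In dendritic cells a small cycling cluster and a larger one differed in opposite directions without passing. Cluster 64 of type 2 conventional dendritic cells (cDC2), led within its type by H1f5, Top2a and Mki67, numbered 30 cells in the whole annotation. It held 0%, 0.0578% and 0.104% of cells in the GITR/Syn GA-aFuc mice, against 0.135%, 0.131% and 0.339% in the Untreated mice (-1.96 ± 0.62, edgeR, adjusted p = 0.271). The 0 of 1381 cells allow a share of up to 0.217%. Cluster 46 of cDC2, led by H2-Oa (of the MHC class II pathway), Plet1 and Kit, held 1.45%, 1.68% and 1.30%, against 0.673%, 1.05% and 0.905% (0.72 ± 0.34, adjusted p = 0.390). In both clusters the mice of the treatments did not overlap.

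Macrophages were spread over many clusters, and none of their shares passed. Cluster 45, led by the cell division genes Ccnb2 (cyclin B2) and Cdkn3, held 1.59%, 1.27% and 1.45% of cells in the GITR/Syn GA-aFuc mice, against 0.606%, 0.918% and 1.19% in the Untreated mice (0.66 ± 0.31, edgeR, adjusted p = 0.390). Cluster 12, led by the chemokines Ccl8 and Pf4 and the fatty acid binding protein Fabp5, held 3.55%, 2.95% and 2.55%, against 2.15%, 2.43% and 2.55% (0.36 ± 0.21, adjusted p = 0.524). In both the mice did not overlap, although in cluster 12 the lowest GITR/Syn GA-aFuc and the highest Untreated mouse had nearly the same share. Cluster 15, led by Sox5 and Cd300e, made up 1.81%, 2.37% and 2.34% of the cells of GITR/Syn GA-aFuc mice, against 2.22%, 2.95% and 3.05% in the Untreated mice (-0.51 ± 0.22, adjusted p = 0.390), with overlapping mice. Cluster 18 of monocytes, led within its type by Ifitm1, held 1.38%, 2.14% and 2.39%, against 2.69%, 2.62% and 2.43% (-0.43 ± 0.23, adjusted p = 0.524), and there every GITR/Syn GA-aFuc mouse lay below every Untreated mouse.

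Of the 5 cell types tested with at least 10 cells per mouse, NK cells had the most calls. Of 9329 genes tested, 12 were called by edgeR (0.129%), 8 higher (0.0858%) and 4 lower (0.0429%), counted in 93 and 74 GITR/Syn GA-aFuc cells and 128 cells of the Untreated mouse. At an unadjusted p under 0.05 there were 696 genes (7.46%), and DESeq2 called 4. With equal cells per mouse, with the stricter filter or without the 1% of cells with most UMIs, 3 of the 12 calls were kept, Ifitm2 each time. In the values below CPM are TMM-normalised over the genes tested, unless named CPM of mapped UMIs. Ifitm2, an interferon-induced membrane protein that restricts virus entry, stood at 693 and 638 CPM in the GITR/Syn GA-aFuc mice, against 118 CPM in the Untreated mouse (2.49 ± 0.20, adjusted p = 1.87e-05). Ifitm1, of the same family, stood at 365 and 498 CPM, against 80.7 CPM (2.42 ± 0.24, adjusted p = 0.000208). Both mice with the antibody stood well above the mouse without it. Lgals3, the lectin galectin 3, stood at 622 and 669 CPM, against 151 CPM (2.10 ± 0.29, adjusted p = 0.00782). S100a6, a calcium-binding protein, stood at 2401 and 2332 CPM, against 1344 CPM (0.82 ± 0.15, adjusted p = 0.0464).

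The other 4 higher genes were granzymes, serine proteases of the cytotoxic granule. Gzmd stood at 1506 and 940 CPM in the GITR/Syn GA-aFuc mice, against 265 CPM in the Untreated mouse (2.21 ± 0.24, edgeR, adjusted p = 0.000496). Gzme stood at 804 and 322 CPM, against 82.4 CPM (2.78 ± 0.41, adjusted p = 0.0115). Gzmf stood at 2070 and 1068 CPM, against 8.77 CPM (7.47 ± 1.28, adjusted p = 0.0402), and Gzmg at 538 and 99.7 CPM, against 1.75 CPM (7.43 ± 1.31, adjusted p = 0.0464). In each of the 4 both GITR/Syn GA-aFuc mice were higher, and for Gzmf and Gzmg the Untreated level rests on 10 and 2 UMIs, so the size of these fold changes is poorly fixed. The transcripts are near copies. Over their last 300 bases Gzmd and Gzme are 95.4% identical and the other pairs 89.1% to 91.8%, with shared runs of 49 to 72 bases, so the split of 3′ reads among the 4 is uncertain. Gzmc shares 69.8% to 71.4% with them and no run over 10 bases.

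The start regions of the 4 granzyme genes are shown because these neighbouring genes were called together. Each line gives the 250 bases before the annotated start, 5′ to 3′ on the minus strand, from RefSeq on GRCm38.p6, an earlier mouse build than the GRCm39 of the counts, and the capitals mark the longest run that all 4 share. 
Gzmd: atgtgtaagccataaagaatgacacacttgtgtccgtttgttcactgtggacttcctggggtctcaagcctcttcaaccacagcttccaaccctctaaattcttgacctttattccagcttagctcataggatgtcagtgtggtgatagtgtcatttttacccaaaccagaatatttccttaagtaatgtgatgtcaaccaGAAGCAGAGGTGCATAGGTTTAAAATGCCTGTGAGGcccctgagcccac
Gzme: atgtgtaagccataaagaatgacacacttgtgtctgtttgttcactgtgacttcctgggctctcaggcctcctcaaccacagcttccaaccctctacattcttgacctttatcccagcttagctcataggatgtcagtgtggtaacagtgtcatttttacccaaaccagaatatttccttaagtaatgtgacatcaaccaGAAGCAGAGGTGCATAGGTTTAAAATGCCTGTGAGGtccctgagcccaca
Gzmf: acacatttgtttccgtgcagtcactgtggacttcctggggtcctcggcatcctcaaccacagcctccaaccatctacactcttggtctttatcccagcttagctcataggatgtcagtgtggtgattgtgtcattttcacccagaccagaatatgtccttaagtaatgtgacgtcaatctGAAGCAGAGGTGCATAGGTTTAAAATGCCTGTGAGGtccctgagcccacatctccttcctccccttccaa
Gzmg: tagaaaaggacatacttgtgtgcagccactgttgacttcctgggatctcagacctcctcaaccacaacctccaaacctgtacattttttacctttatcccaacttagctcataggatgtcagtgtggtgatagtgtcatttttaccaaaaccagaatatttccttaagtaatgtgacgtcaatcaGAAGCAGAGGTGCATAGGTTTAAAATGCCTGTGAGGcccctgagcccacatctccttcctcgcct
They lie at chr14:56132594-56132843 (Gzmd), chr14:56120626-56120875 (Gzme), chr14:56211408-56211657 (Gzmf) and chr14:56159580-56159829 (Gzmg). The run of 36 bases begins 49, 50, 70 and 65 bases before the annotated starts, and among 32851 RefSeq promoter windows it occurs on either strand in these 4 alone (0.0122%). Aligned windows are 89.5% to 95.6% identical. The cyclic AMP response element TGACGTCA, the same on both strands, is present in the windows of Gzmf and Gzmg and in 508 of all windows (1.55%), and its letters are not in those of Gzmd and Gzme.

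The remaining cytotoxic genes of NK cells differed less. Of 15 members of the cytotoxic effector list that were tested, 3 were called higher (Gzmd, Gzme and Gzmf) and 0 lower, where 0.0858% of all genes tested were called higher, with a list median of 0.32 beside 0.01 over all 9329 genes. Gzmc stood at 13406 and 15104 CPM in the GITR/Syn GA-aFuc mice, against 6795 CPM in the Untreated mouse, a difference below the threshold (1.07 ± 0.23, edgeR, adjusted p = 0.127). Gzmb stood at 3415 and 3809 CPM, against 2661 CPM (0.44 ± 0.21, adjusted p = 0.682). Prf1, the pore-forming perforin, stood at 964 and 1238 CPM, against 819 CPM (0.43 ± 0.17, adjusted p = 0.621). Gzma stood at 4565 and 4554 CPM, against 4907 CPM (-0.11 ± 0.11, adjusted p = 0.887). The calls thus fell on 4 of the granzyme genes and not on Gzma, Gzmb or Prf1. The 3 called list members are near copies, and the list was chosen with earlier results of these data known. Their count therefore does not stand for 3 separate results.

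**Figure D3:**
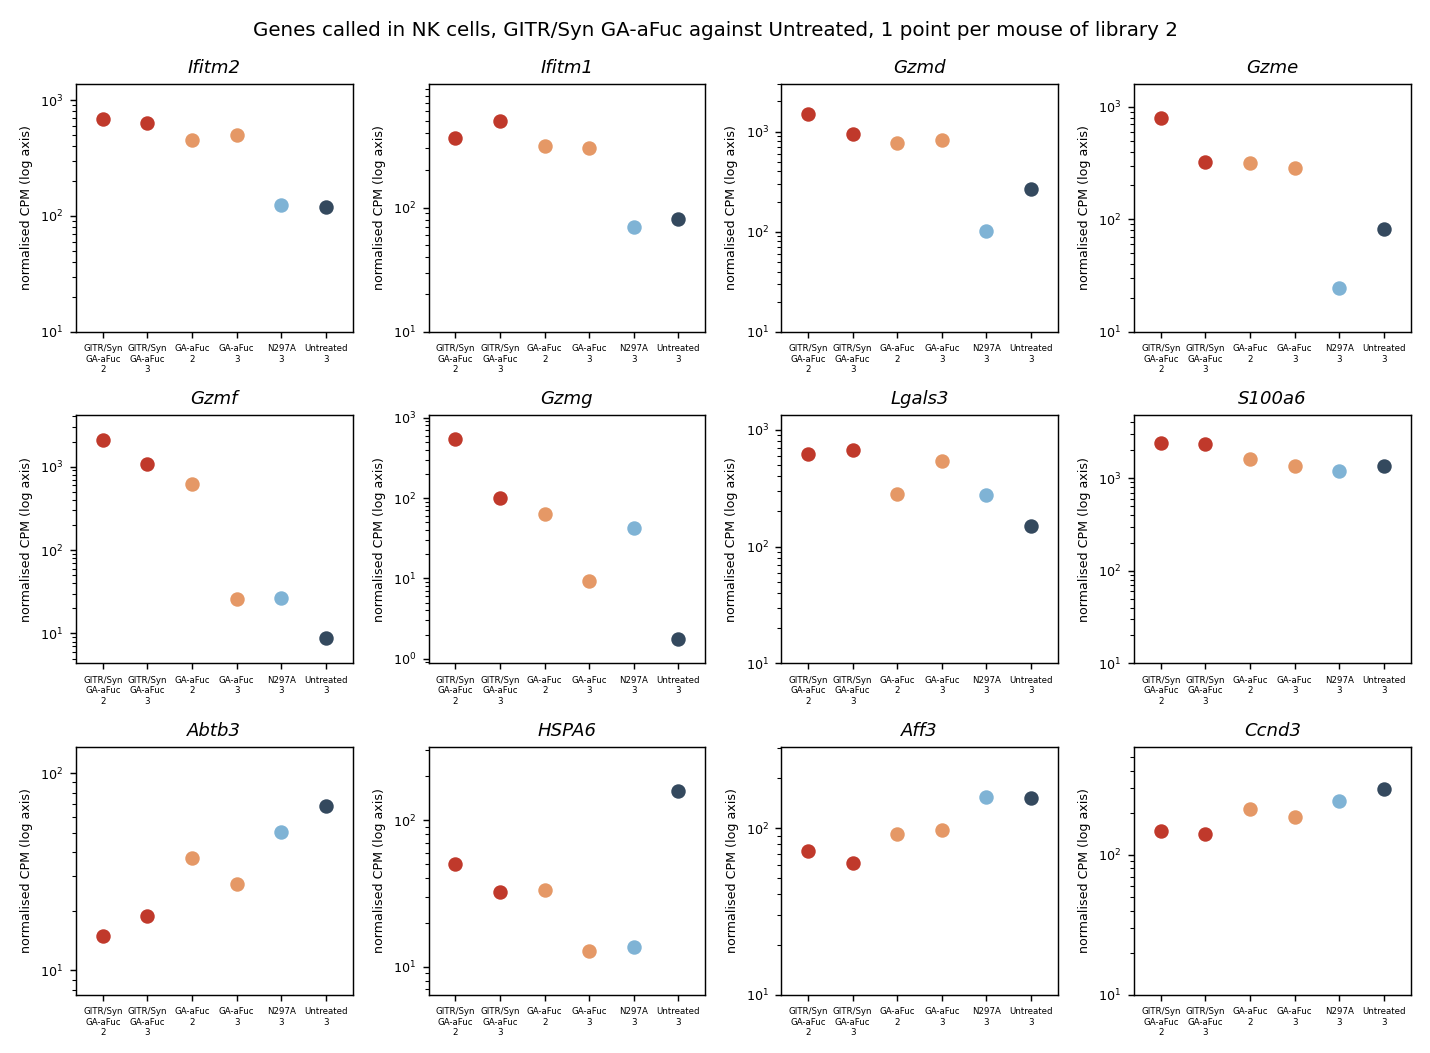
Normalised CPM (log axis) of the 12 genes called in NK cells, 1 point per mouse of library 2, with GITR/Syn GA-aFuc on the left and Untreated on the right. Ifitm2 lies at 693 and 638 CPM in the GITR/Syn GA-aFuc mice, against 118 CPM in the Untreated mouse, and the 4 lower genes stand in the bottom row.

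The 4 lower genes were Abtb3, HSPA6, Aff3 and Ccnd3. Ccnd3, the cell cycle regulator cyclin D3, stood at 148 and 141 CPM in the GITR/Syn GA-aFuc mice, against 296 CPM in the Untreated mouse (-1.04 ± 0.19, edgeR, adjusted p = 0.0471). Aff3, a nuclear protein of the AF4 family, stood at 72.4 and 62.0 CPM, against 151 CPM (-1.16 ± 0.21, adjusted p = 0.0471), and Abtb3 at 15 and 18.8 CPM, against 68.4 CPM (-2.02 ± 0.34, adjusted p = 0.0388). HSPA6 is a human feature of the combined reference, an inducible heat shock protein. It stood at 49.8 and 32.1 CPM, against 159 CPM (-1.94 ± 0.33, adjusted p = 0.0402), but 150 of the 181 UMIs of the Untreated mouse came from 1 cell, and a UMI was found in 35.5% and 27% of GITR/Syn GA-aFuc cells, against 14.1% of Untreated cells. Most of the Untreated UMIs thus came from a single cell. Of the 12 calls, those of Gzmf and of these 4 lower genes were lost when either GITR/Syn GA-aFuc mouse was left out.

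The called granzymes and Ifitm1 had a UMI in a minority of NK cells. Gzmf had a UMI in 16 of 93 and 13 of 74 cells of the GITR/Syn GA-aFuc mice, against 5 of 128 cells of the Untreated mouse, and 1 cell held 52.9% and 48.3% of its UMIs in the GITR/Syn GA-aFuc mice. For Gzmg 1 cell held 53.7% and 58.9% of the UMIs in these mice, for Gzmd 23.3% and 39.5% and for Gzme 34.2% and 23.4%. Ifitm1 had a UMI in 10 and 12 cells, against 11, so its higher level came with more UMIs per positive cell on average (388 and 450 UMIs in all, against 92). Its 5 highest cells held 87.6% and 93.6% of these UMIs, against 93.5%, so the level rests on few cells in each mouse. Lgals3 was broader, with a UMI in 73.1% and 75.7% of cells, against 43.0%, and Ifitm2 in 38.7% and 36.5%, against 24.2%. Median UMIs per NK cell were 9296 and 11856.5, against 6666, and the part of that depth in the shares of positive cells was not tested.

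The levels were set apart by NK cluster, so shares of clusters and levels within them can be read side by side. Of library 2 NK cells, clusters 20, 48 and 58 held 28, 15 and 6 cells of GITR/Syn GA-aFuc replicate 2 and 21, 13 and 11 cells of replicate 3, against 37, 11 and 8 cells of the Untreated mouse. In cluster 48 Gzmd stood at 3365 and 2980 CPM of mapped UMIs, against 180, and Ifitm2 at 1625 and 1220, against 466. Gzmf stood there at 3528 and 1572 CPM of mapped UMIs, against 0 of 122321 UMIs, which allows up to 24.5 CPM. In cluster 20 Ifitm2 stood at 570 and 553 CPM of mapped UMIs, against 117, while Gzmd stood at 1605 and 191, against 534, so that its mice overlapped. In cluster 58 Gzmf stood at 9584 and 2557 CPM of mapped UMIs, against 27.6. However, 1 cell held 1165 of its 1171 UMIs in replicate 2, and 1 cell held 466 of 577 in replicate 3. Ifitm2 stood there at 499 and 576, against 82.9, and Gzmd at 65.5 and 660, against 122, with overlapping mice. In cluster 19 all 3 stood near 0, Ifitm2 at 28.3 and 9.46 CPM of mapped UMIs, against 17.2. Within clusters 20, 48 and 58 together, a setting added after the data were seen, 17 of 8413 genes were called (0.202%), 11 higher and 6 lower, and these held 10 of the 12 calls, all 8 higher ones included. Ifitm2 differed there by 2.34 ± 0.21 (edgeR, adjusted p = 6.49e-07) and Gzmc by 0.86 ± 0.16 (adjusted p = 0.0113). Within clusters 19 and 26, 0 of 5887 genes were called (0.0%) by edgeR, with 161 at an unadjusted p under 0.05. Gzmd, Gzme, Gzmf, Gzmg and Ifitm1 did not pass the expression filter there, so only 7 of the 12 called genes were tested.

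**Figure D4:**
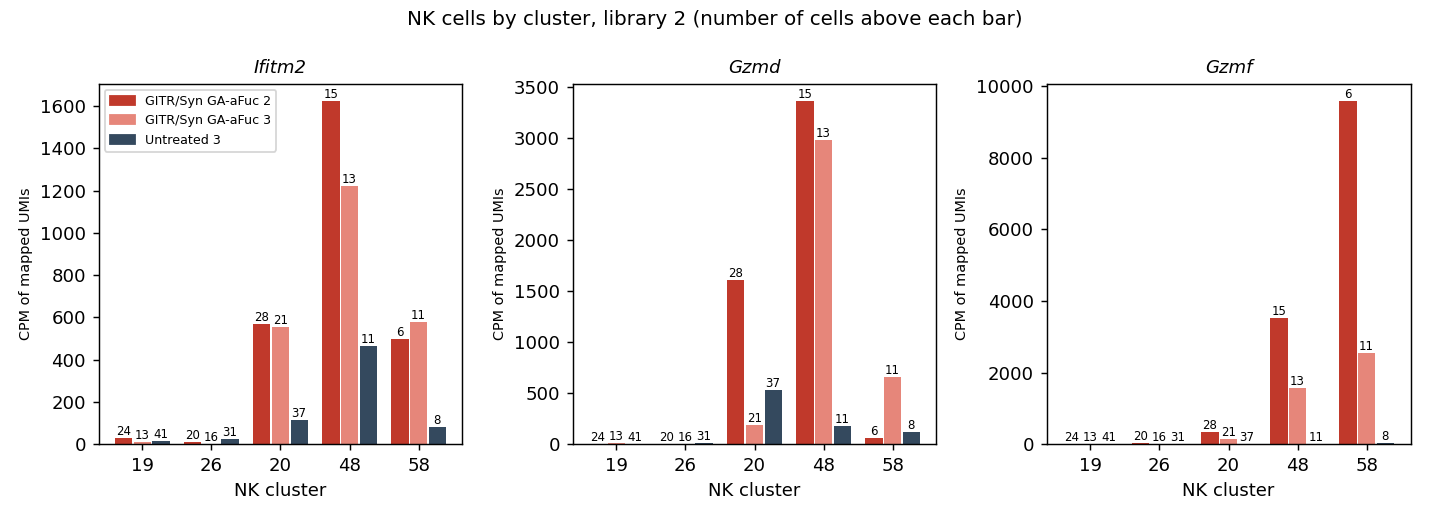
CPM of mapped UMIs (y axis, linear, from 0) of Ifitm2, Gzmd and Gzmf in the 5 NK clusters of library 2, with bars for GITR/Syn GA-aFuc replicates 2 and 3 and Untreated replicate 3 from left to right and the number of cells above each bar. Cluster 48 holds the highest Ifitm2 and Gzmd bars, 1625 and 3365 CPM in GITR/Syn GA-aFuc replicate 2, and clusters 19 and 26 lie near 0.

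Genes of both interferon lists had mostly negative differences in NK cells and none of them was called, and neither list holds Ifitm1 or Ifitm2. In the type I interferon list 20 of 23 tested genes had a negative log2 fold change (median -0.65, 0 called) and in the interferon gamma list 19 of 21 (median -0.54, 0 called), beside a median of 0.01 over all genes. Mx1, an antiviral GTPase, stood at 30.1 and 21.0 CPM in the GITR/Syn GA-aFuc mice, against 71.0 CPM in the Untreated mouse (-1.46 ± 0.32, edgeR, adjusted p = 0.154). Cluster 19, with interferon-induced genes among its leaders within NK cells, was 25.8% and 17.6% of library 2 NK cells in the GITR/Syn GA-aFuc mice, against 32.0% in the Untreated mouse. The part of this cluster in the list medians was not tested. Glycolysis and hypoxia genes were positive in 15 of 20 (median 0.32, 0 called). GA-aFuc against the same Untreated mouse gave list medians of -0.76 (type I interferon), -0.32 (interferon gamma) and 0.28 (glycolysis and hypoxia). In the list of NK receptors, 2 of 19 were called higher, where 0.0858% of all 9329 genes tested were called higher. The 2 were Ifitm1 and Ifitm2, which are no receptors, and the list median was -0.03.

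The same NK genes in the other treatments are given side by side, since the comparisons share the Untreated mouse. Ifitm2 stood at 693 and 638 CPM in the GITR/Syn GA-aFuc mice, 455 and 501 CPM in the GA-aFuc mice, 124 CPM in the N297A mouse and 118 CPM in the Untreated mouse. Gzmd stood at 1506 and 940 CPM in the GITR/Syn GA-aFuc mice, 770 and 826 CPM in the GA-aFuc mice, 102 CPM in the N297A mouse and 265 CPM in the Untreated mouse. Gzmf stood at 626 and 25.7 CPM with GA-aFuc and 26.3 CPM with N297A. Tested directly, GITR/Syn GA-aFuc minus GA-aFuc called 0 of 9329 genes in NK cells (0.0%) by edgeR, with 411 at an unadjusted p under 0.05 and 1 called by DESeq2.

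In cDC2, 4 of 7404 genes were called by edgeR (0.054%), 2 higher (0.027%) and 2 lower (0.027%), from 52 and 49 cells against 47, with 379 at an unadjusted p under 0.05 (5.12%) and 0 called by DESeq2. Dcstamp, a membrane protein of cell fusion in osteoclasts, stood at 103 and 136 CPM in the GITR/Syn GA-aFuc mice, against 24.3 CPM in the Untreated mouse (2.28 ± 0.42, adjusted p = 0.023). Ly6c2, a surface protein of monocytes and their progeny, stood at 719 and 734 CPM, against 297.1 CPM (1.29 ± 0.24, adjusted p = 0.023). Hmgb2, a chromatin protein of cycling cells, stood at 363 and 402 CPM, against 782 CPM (-1.03 ± 0.18, adjusted p = 0.023), and the histone gene H2ac8 at 18.6 and 28.3 CPM, against 92.1 CPM (-1.97 ± 0.38, adjusted p = 0.0337). All 19 tested proliferation genes had a negative log2 fold change (1 called lower, Hmgb2, median -1.11 beside 0.00 over all genes), among them Mki67 at 13.5 and 40.7 CPM, against 93.8 CPM (-1.80 ± 0.41, adjusted p = 0.0981). Without the cycling cluster 64, left out after the data were seen, 0 of 6617 genes were called (0.0%) by edgeR, with 265 at an unadjusted p under 0.05, and Hmgb2 stood at 0.01. In that setting Ly6c2 (1.16) and Dcstamp (1.92) kept their direction without passing, and H2ac8 did not pass the expression filter and was not tested. Over all cDC2, GA-aFuc against the same Untreated mouse gave a proliferation median of -0.80.

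Monocytes, the circulating precursors of tumour macrophages, had 0 of 11920 genes called by edgeR (0.0%), with 291 at an unadjusted p under 0.05 (2.44%) and 2 called by DESeq2. The smallest p belonged to Mmp12, the macrophage elastase, at 91.7 and 127 CPM in the GITR/Syn GA-aFuc mice, against 32.1 CPM in the Untreated mouse (1.77 ± 0.30, edgeR, adjusted p = 0.812). Slc7a11, the cystine transporter, stood at 124 and 162 CPM, against 58.9 CPM, and Il1a, interleukin 1α, at 46.2 and 59.7 CPM, against 23.2 CPM (adjusted p = 0.969 for both). In the inflammatory cytokine list 16 of 20 genes were positive (median 0.44, 0 called), and in the alternative activation and arginine list 15 of 16 (median 0.49, 0 called), beside 0.00 over all genes. With GA-aFuc against the same Untreated mouse these list medians were 0.62 and 2.43. Arg1, arginase 1, stood at 242 and 305 CPM, against 165 CPM (0.73 ± 0.33, adjusted p = 1).

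Against GA-aFuc, whose label differs in agonism, the same monocytes had calls. Of 11920 genes 13 differed (0.109%), 1 higher and 12 lower in GITR/Syn GA-aFuc, and 6 of the 12 were among 16 tested genes of the alternative activation and arginine list (median -1.18 beside -0.00 over all genes). Arg1 stood at 242 and 305 CPM in the GITR/Syn GA-aFuc mice, against 1181 and 2246 CPM in the GA-aFuc mice (-2.65 ± 0.27, edgeR, adjusted p = 0.00343). Mrc1, the mannose receptor, stood at 39.9 and 15.2 CPM, against 135 and 232 CPM (-2.76 ± 0.36, adjusted p = 0.0097), and Pdcd1lg2, the PD-1 ligand PD-L2, at 32.8 and 20.2 CPM, against 95.1 and 129 CPM (-2.10 ± 0.24, adjusted p = 0.00343). Slc7a2, an arginine transporter, stood at 67.4 and 23.4 CPM, against 184 and 233 CPM (-2.22 ± 0.35, adjusted p = 0.037). For each of these 4 genes both GITR/Syn GA-aFuc mice lay below both GA-aFuc mice. The Untreated mouse had 165 CPM of Arg1, 17.1 of Mrc1, 18.2 of Pdcd1lg2 and 36.7 of Slc7a2. Cdh1 and Ccl24 were the other 2 list members called lower. The higher gene was Spint1, a protease inhibitor, at 144 and 147 CPM, against 73.0 and 56.2 CPM (1.18 ± 0.18, adjusted p = 0.0279). There were 222 and 44 calls without GA-aFuc replicates 2 and 3, and 6 and 10 without GITR/Syn GA-aFuc replicates 2 and 3, and Arg1 lost its call without GITR/Syn GA-aFuc replicate 2 (-2.49, edgeR, adjusted p = 0.218).

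**Figure D5:**
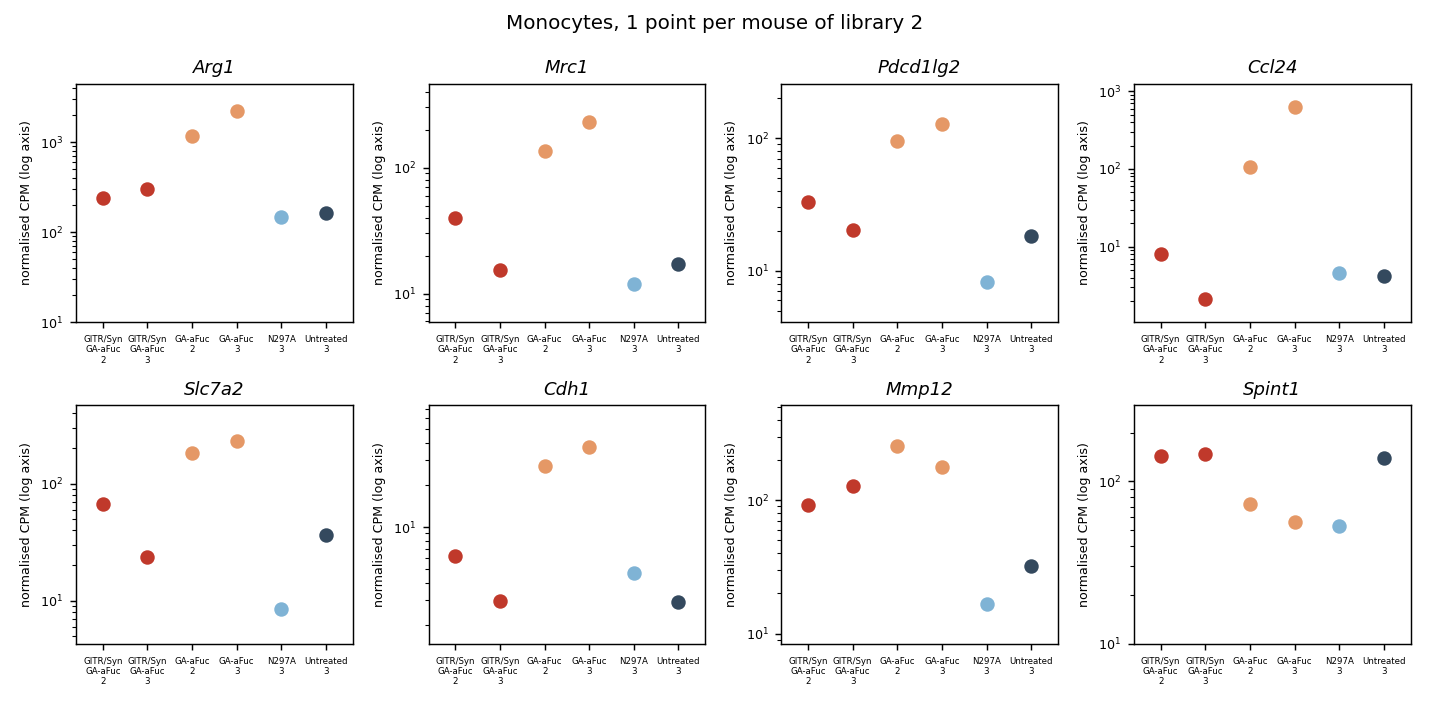
Normalised CPM (log axis) of 8 genes in monocytes, 1 point per mouse of library 2, with GITR/Syn GA-aFuc on the left and Untreated on the right. Arg1 lies at 242 and 305 CPM in the GITR/Syn GA-aFuc mice, against 1181 and 2246 CPM in the GA-aFuc mice and 165 CPM in the Untreated mouse.

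Macrophages had 0 of 14340 genes called (0.0%) by edgeR, with 185 at an unadjusted p under 0.05 (1.29%) and 0 called by DESeq2. Il1a stood at 16.7 and 13.3 CPM in the GITR/Syn GA-aFuc mice, against 3.63 CPM in the Untreated mouse (2.05 ± 0.30, adjusted p = 1). Mrc1 stood at 195 and 108 CPM, against 58.7 CPM (1.36 ± 0.43, adjusted p = 1). The alternative activation list was positive in 17 of 17 tested genes (median 0.67), while MHC class II was negative in 11 of 12 (median -0.44), type I interferon in 25 of 25 (median -0.25) and interferon gamma in 23 of 24 (median -0.41), with 0 called in each and 0.01 over all genes. With GA-aFuc against the same Untreated mouse these list medians were, in the same order, 2.11, -0.74, -0.32 and -0.43. Against GA-aFuc, 1 of 14340 genes was called (0.00697%), the VEGF receptor Flt1 at 9.74 and 11.5 CPM, against 41.8 and 40.5 CPM in the GA-aFuc mice (-1.95 ± 0.16, edgeR, adjusted p = 0.0229). Flt1 lost that call without GITR/Syn GA-aFuc replicate 2 (edgeR, adjusted p = 0.136) or replicate 3 (edgeR, adjusted p = 0.371), and 386 and 32 genes were called without GA-aFuc replicates 2 and 3.

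CD8 T cells had 0 of 8570 genes called (0.0%) by edgeR, with 332 at an unadjusted p under 0.05 (3.87%) and 0 called by DESeq2. Klra1, a Ly49 receptor, stood at 41.0 and 39.9 CPM in the GITR/Syn GA-aFuc mice, against 1.5 CPM in the Untreated mouse (4.63 ± 0.74, adjusted p = 0.487), where the Untreated level rests on 2 UMIs. Gzmb stood at 2857 and 3295 CPM, against 1757 CPM (0.81 ± 0.21, adjusted p = 0.999). Proliferation genes were negative in 20 of 21 (median -0.51, 0 called). GA-aFuc against the same Untreated mouse gave medians of -0.48 for proliferation, -0.04 for complement and 0.14 for MHC class II genes. Complement genes were positive in 6 of 6 (median 1.10) and MHC class II genes in 7 of 7 (median 1.04), and macrophage markers, all 10 detected, summed to 1389 and 955 CPM of mapped UMIs in these CD8 cells, against 516, and the part of these markers in both lists was not tested.

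The human Fcγ receptors that the Fc part binds showed no call in the 5 cell types, where 5 or 6 of these 6 genes were tested in each. In CD8 T cells 5 of 5 had a positive log2 fold change (median 0.87), 2 of them at an unadjusted p under 0.05 (edgeR). Positive genes numbered 4 of 5 in NK cells (median 0.50) and 5 of 5 in cDC2 (0.17). In macrophages 2 of 6 were positive (median -0.09) and in monocytes 3 of 6 (-0.02). Medians over all genes tested were 0.00 to 0.01. FCGR3A stood at 110 and 51.3 CPM of mapped UMIs in NK cells of the GITR/Syn GA-aFuc mice, against 60.0 in the Untreated mouse, and at 451 and 352, against 374, in macrophages. FCGR3B, the neutrophil form in humans, stood at 4125 and 3421 CPM of mapped UMIs in macrophages, against 3633. FCGR2A, an activating receptor, stood there at 1041 and 1152, against 979. FCGR2B, the inhibitory receptor, stood at 1007 and 1217 CPM of mapped UMIs in monocytes, against 1148. The mice overlapped for FCGR3A, FCGR3B and FCGR2B in these cells. Some FCGR genes are similar in sequence, which was not measured here, so the split of reads among those is uncertain.

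Types with fewer than 10 cells in a mouse were not tested by the rule. At a minimum of 5 cells, a setting added after the data were seen, CD4 T cells had 0 of 2744 genes called (0.0%) by edgeR from 9 and 5 cells against 8. Mature dendritic cells that the annotation calls mregDC had 2 of 2406 (0.0831%) from 15 and 9 cells against 8. These were Cxcl9, a chemokine for T cells, at 451 and 466 CPM in the GITR/Syn GA-aFuc mice, against 2521 CPM in the Untreated mouse (-2.46 ± 0.39), and Ccl5 at 4271 and 15229 CPM, against 1457 CPM (2.74 ± 0.50). The 10 macrophage markers summed to 2700 and 1508 CPM of mapped UMIs in the GITR/Syn GA-aFuc mregDC, against 413 in the Untreated mouse, and their part in these calls was not tested. cDC1 had 22 of 3870 (0.568%) from 12 and 11 cells against 9, 14 higher and 8 lower, in a fit of 5 mice with 1 residual degree of freedom, since GA-aFuc replicate 3 had 4 cells. The higher genes included the histone genes H1f5 (2.51 ± 0.44), H2ac8 (3.92 ± 0.73), H1f4 (2.89 ± 0.60) and H2ac24 (1.57 ± 0.41), and Xist, found in GITR/Syn GA-aFuc replicate 2 alone of these 3 mice. H2ac8 thus had the opposite direction to cDC2, but its Untreated level in cDC1, 13.1 CPM, rests on few UMIs. The lower genes included FCGR3B (-2.61 ± 0.48) and the macrophage genes Apoe (-2.71 ± 0.35), C1qa (-2.38 ± 0.45), C1qb and C1qc. The macrophage markers summed to 375 and 360 CPM of mapped UMIs in the GITR/Syn GA-aFuc cDC1, against 1906 in the Untreated mouse, and their part in the lower calls was not tested.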

How the data were processed

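CD45+ leukocytes of MC38 tumours were hashed, pooled into 2 libraries and counted with Cell Ranger 9.0.0 on a combined GRCh38 and GRCm39 reference, per the file headers and the submitters' processing notes. The deposited matrix of library 2 holds raw counts of UMIs per feature and barcode, and the authors' annotation gives treatment, cell type and cluster of each cell. The sources used here do not say how cells were filtered, clustered and named or how doublets were handled. No caller of doublets was applied. The counts of library 1 were not analysed here. Mice were taken from runs of rising barcodes in the annotation, which carries no mouse number.

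The members and lists were chosen with earlier results of these data known. Cells per cluster or type were tested with edgeR's quasi-likelihood test (edgeR 4.0.16, R 4.3.3), with treatment and library as terms over 12 mice and all annotated cells as offset. UMI counts were summed per mouse and cell type with at least 10 cells and tested likewise with treatment as the term over the 6 mice of library 2 (filterByExpr, TMM, 2 residual degrees of freedom between mice). cDC1, tested at a minimum of 5 cells, had 5 mice and 1 residual degree of freedom. Adjusted p-values are Benjamini-Hochberg over all clusters, types or genes tested, called under 0.05. In the expression tests the spread comes from the 2 GITR/Syn GA-aFuc and the 2 GA-aFuc mice, and in cDC1 from the GITR/Syn GA-aFuc pair alone. In each pair 1 mouse had high Xist and 1 had high Uty. The single Untreated mouse of library 2 is taken to vary like these pairs, so no expression p-value measures variation among Untreated mice. The p-values of shares measure the spread between the 12 mice. Total UMIs per compared mouse were 21964700 and 25808000 for GITR/Syn GA-aFuc and 22584300 for Untreated, and limits for counts of 0 (3 counts) cover counting error only. Named genes were the called genes with the most positive and most negative log2 fold changes (at most 6 each), else the 6 with the smallest p, plus at most 4 members per list and fixed receptors. Other genes named were chosen after their values were seen. Alternatives were other size factors and filters, DESeq2 1.42.0, fewer mice or cells, and single clusters, the last of these chosen after seeing the data. The result of 1 gene in the test against GA-aFuc in cDC2 is not reported here.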

Additional observations from a re-analysis of the deposited data

Results flagged for a closer look

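H2ac8, a histone gene, was called lower in cDC2 of GITR/Syn GA-aFuc than of Untreated mice (-1.97, edgeR, adjusted p = 0.0337), while its log2 fold change in NK cells was 1.12 and did not pass (edgeR, adjusted p = 0.621). In both types each GITR/Syn GA-aFuc mouse lay on the same side of the Untreated mouse. In cDC1, at the added minimum of 5 cells, the log2 fold change of H2ac8 was 3.92, from 12 and 11 cells against 9. It stood there at 165 and 256 CPM, against 13.1 CPM, and the Untreated level rests on few UMIs. That fit had 1 residual degree of freedom. The difference between these cell types was not tested.

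A direct test of GITR/Syn GA-aFuc minus GA-aFuc called these genes, among others, of those that the naming rule picked against Untreated. In monocytes Arg1 differed by -2.65 and Pdcd1lg2 by -2.10 (edgeR, adjusted p = 0.00343 for both). In cDC2, where 30 of 7404 genes were called (0.405%), Arg1 differed by -4.17 and H2ac8 by -2.03 (edgeR, adjusted p = 0.00173 for both), Capg, an actin-capping protein, by -1.41 (adjusted p = 0.00229), and Ccl17, a chemokine for T cells, by -2.15 (adjusted p = 0.0199). Without GA-aFuc replicate 2 the cDC2 difference of Arg1 was -1.91 (edgeR, adjusted p = 0.736) and that of Ccl17 was 0.07 (edgeR, adjusted p = 0.970), and Ccl17 stood at 149 and 93.8 CPM with GITR/Syn GA-aFuc, against 958 and 116 CPM with GA-aFuc. DESeq2 called 6 genes in that comparison, and Arg1, H2ac8, Capg and Ccl17 were not among them (the lowest, that of H2ac8, was an adjusted p of 0.332 with DESeq2). The share of CD4 T cells was 0.869%, 0.521% and 0.260% with GITR/Syn GA-aFuc, against 1.68%, 1.10% and 0.714% with GA-aFuc, a log2 difference of -1.11 ± 0.31 (edgeR, adjusted p = 0.0364, 1 of 10 types, 10.0%).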

How the results depend on the processing

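The Treg share kept its direction under every alternative run for it, and lost its call with library 1 alone (-1.83, 0 types called). Cluster 50 lost its call with the 6 compared mice alone (-2.56), library 1 alone (-1.83) and DESeq2 (-2.57), and leaving out 1 mouse gave -2.84 to -1.93, without a call when GITR/Syn GA-aFuc replicate 1 or 3 or Untreated replicate 3 was left out. Clusters called numbered 2 with TMM factors and without the library term, 0 with compared mice alone, library 1 alone and DESeq2, and 0 to 2 with 1 mouse left out. The second cluster was NK 19 (adjusted p = 0.0329 with TMM, edgeR).

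Genes called in NK cells (12) numbered 57 without a filter, 3 with the stricter filter, 74 with compared mice alone, 6 with equal cells per mouse, 3 without the 1% of cells with most UMIs, 4 with DESeq2, 0 in clusters 19 and 26, and 8 to 45 with 1 mouse left out. Of the 12 calls 7 were kept without either GITR/Syn GA-aFuc mouse and 12 without either GA-aFuc mouse, where 30 and 45 genes were called. With equal cells Gzmf, Ifitm2 and Lgals3 were kept, with the stricter filter Gzmd, Ifitm1 and Ifitm2, and without the 1% of cells with most UMIs Gzmg, Ifitm2 and Lgals3. Ifitm2 was called in 15 of 16 alternatives, Lgals3 in 13 of 16, S100a6 in 12 of 16, Gzmd and Ifitm1 in 13 of 15, Gzmg in 12, Gzme in 11, Gzmf in 10 and HSPA6 in 8 of 15, Aff3 in 9 of 16, and Abtb3 and Ccnd3 in 8 of 16. In cDC2 the 4 calls became 0 with RLE size factors, no filter, the stricter filter, equal cells, DESeq2 and cluster 64 left out, 13 without the 1% of cells with most UMIs, 48 with compared mice alone, and 3 to 57 with 1 mouse left out (53 and 57 without GA-aFuc replicates 2 and 3, 19 and 26 without GITR/Syn GA-aFuc replicates 2 and 3). The 0 calls of macrophages became 34 without a filter and with compared mice alone, and 0 to 30 with 1 mouse left out (30 and 26 without GA-aFuc replicates 2 and 3). Those of monocytes became 31 and 30 in the same settings, 2 with DESeq2, and 0 to 32 with 1 mouse left out (31 and 32 without GA-aFuc replicates 2 and 3, 4 without GITR/Syn GA-aFuc replicate 3). Those of CD8 T cells became 34 without a filter, 1 with compared mice alone, and 0 to 56 with 1 mouse left out (21 and 56 without GITR/Syn GA-aFuc replicates 2 and 3). Gzmd, Gzme, Gzmf, Gzmg and Ifitm1 were not tested in clusters 19 and 26, nor was H2ac8 in cDC2 without cluster 64, since they did not pass the filter. Signs turned for HSPA6 in NK cells with equal cells (0.86) and in clusters 19 and 26 (0.83), for Ifitm2 in those clusters (-0.43), and for Hmgb2 in cDC2 without cluster 64 (0.010). The cause of these changes was not tested.

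Monocyte calls against GA-aFuc (13) numbered 12 with RLE size factors, 17 with DESeq2, 167 without a filter and 6 to 222 with 1 mouse left out. The 100 list medians kept their sign and size with RLE size factors. Each mouse had 1 treatment and the labels name no pairs of mice, so no paired analysis was run. Depth limits Tregs, with 1 cell in each GITR/Syn GA-aFuc mouse of library 2, and expression rests on 1 Untreated mouse.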
